A study of Homo sapiens with 24 samples.

Results

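The integrated stress response effectors described here are 10 genes, ATF4, ATF3, DDIT3, CEBPB, TRIB3, PPP1R15A, CHAC1, DDIT4, SESN2 and GDF15, found by their symbols among 28307 genes in a table of raw read counts. RNA was sequenced from 2 established lines, SUM159 of breast and SW620 of colon cancer. Adherent cells received nifuroxazide (NIF), a nitrofuran antibiotic, or the DMSO vehicle for 30 h, and were then sorted into ALDHbr and ALDHneg cells, those with high and with low aldehyde dehydrogenase activity, which the study takes as cancer stem cells and as the other tumor cells. The 8 conditions were SUM159 ALDHbr and ALDHneg under DMSO and under NIF, and SW620 ALDHbr and ALDHneg under DMSO and under NIF, with 3 libraries each and 24 in all. Since the sort followed the treatment, the cells of a population under NIF are those that fell in its gate after 30 h. Each population is a bulk sample, in which fewer cells of a type and less RNA per cell cannot be told apart.

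The integrated stress response is the pathway by which cells under amino acid shortage, misfolded protein in the endoplasmic reticulum, mitochondrial damage, heme shortage or double-stranded RNA slow protein synthesis. Kinases phosphorylate the initiation factor eIF2, which lowers general translation and raises translation of the transcription factor ATF4, and ATF4 with its partners then raises genes for amino acid supply, redox balance and, under lasting stress, cell death. Several of these targets feed back on the pathway, and RNA levels measure its transcriptional output, not the phosphorylation of eIF2 or the amount of ATF4 protein.

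The promoters of 3 of these genes are shown because they hold a binding motif of the ATF4 family. All 10 genes moved together in SW620, and the part of the motifs in this was not tested. RefSeq windows (GRCh38.p14) matched 10 of 10 genes with 16 start sites, and the 250 bases before each start were searched on both strands for TGATGNAA, the core of the C/EBP-ATF response element, and for TGACGTCA, the cAMP response element. The motifs do not share a match. The first was found before a start of CHAC1 and of ATF3 and in 3.14% of 35116 windows, and the second before the start of PPP1R15A and in 1.65% of the windows. The capitals mark the match, which lies at -209 to -202 from the start in CHAC1 (TTGCATCA, the motif on the other strand), at -191 to -184 in ATF3 and at -58 to -51 in PPP1R15A. Neither motif was found for the other members, TRIB3 and DDIT3 among them, or at the other start of ATF3. These are matches of letters and not measured binding. The windows are on the plus strand at chr15:40953221-40953470 for CHAC1, chr1:212565157-212565406 for ATF3, the more upstream of its listed starts, and chr19:48872171-48872420 for PPP1R15A.
CHAC1: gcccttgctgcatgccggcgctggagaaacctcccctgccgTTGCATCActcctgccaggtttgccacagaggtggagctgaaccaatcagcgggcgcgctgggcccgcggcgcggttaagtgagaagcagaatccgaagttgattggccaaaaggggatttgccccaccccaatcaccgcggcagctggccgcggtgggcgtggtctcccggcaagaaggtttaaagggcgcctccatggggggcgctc
ATF3: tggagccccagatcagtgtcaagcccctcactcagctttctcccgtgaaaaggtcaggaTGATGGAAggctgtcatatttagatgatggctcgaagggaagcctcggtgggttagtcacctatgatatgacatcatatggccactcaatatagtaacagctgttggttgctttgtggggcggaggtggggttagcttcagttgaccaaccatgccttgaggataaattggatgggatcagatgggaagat
PPP1R15A: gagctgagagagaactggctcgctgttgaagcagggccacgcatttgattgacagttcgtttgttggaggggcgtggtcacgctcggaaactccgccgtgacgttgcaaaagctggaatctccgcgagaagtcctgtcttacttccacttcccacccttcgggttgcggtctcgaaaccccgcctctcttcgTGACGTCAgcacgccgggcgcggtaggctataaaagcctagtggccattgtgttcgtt

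Total counts per library ran from 30253187 to 43127948, and the lowest count of any of the 10 genes in a library was 33, for GDF15. All 10 passed the filter on low counts in both lines. In GRCh38.p14 (RefSeq) the genes lie at chr22:39520559-39522686 (ATF4), chr1:212565407-212620777 (ATF3), chr12:57516588-57520517 (DDIT3), chr10:72273924-72276036 (DDIT4), chr20:380760-397559 (TRIB3), chr15:40953471-40956512 (CHAC1), chr1:28259518-28282491 (SESN2), chr19:48872421-48876058 (PPP1R15A), chr20:50190583-50192690 (CEBPB) and chr19:18386158-18389176 (GDF15). Markers of tissue separated the lines, with a mean of 10 colon epithelial markers of 5.42 to 6.25 log2 CPM (CPM are read counts scaled to 1000000 reads per library) in SW620 and of -2.67 to -0.44 in SUM159, and a mean of 10 mesenchymal markers of 7.43 to 7.92 in SUM159 and -0.69 to -0.25 in SW620. The value of -0.44 belonged to SUM159 ALDHbr DMSO replicate 3, which stood apart from the other 11 SUM159 libraries (at most -1.96). It held 87 counts of EPCAM, 75 of KRT20 and 68 of CDH1, where those libraries held at most 11, 1 and 6, which is 0.343%, 0.386% and 0.447% of the mean SW620 level. Results of SUM159 ALDHbr cells under DMSO are therefore also given without it. The sort marker ALDH1A1 averaged 128 CPM in SUM159 ALDHbr and 0.451 CPM in SUM159 ALDHneg cells under DMSO, but 1384 and 955 CPM in SW620, so that the ALDHneg cells of SW620 carried abundant ALDH1A1 RNA.

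In SW620, NIF raised all 10 effectors in both ALDHbr and ALDHneg cells. CHAC1, an enzyme that breaks down glutathione, rose most (11.3-fold and 9.89-fold), followed by TRIB3 (4.24-fold and 4.35-fold) and DDIT3 (3.15-fold and 3.34-fold), and ATF4 itself rose least (1.67-fold and 1.80-fold). In SUM159, in a fit without pairing, CHAC1 alone passed the threshold, with a rise of 1.93-fold in ALDHbr and 1.77-fold in ALDHneg cells. With the replicate number added to the model as a block, ATF4 and TRIB3 were also called higher and DDIT4 lower in both populations. SESN2 was then also called higher in ALDHneg cells. By the edgeR quasi-likelihood test with Benjamini-Hochberg adjustment over all genes tested and a threshold of 0.05, 10 of 10 were called higher in SW620 ALDHbr cells, where 21.4% of 13953 genes were called higher and 21.9% lower, and 10 of 10 in SW620 ALDHneg cells (22.3% higher and 22.7% lower). The median log2 fold change of the 10 genes was 1.32 and 1.51, and that of all genes tested -0.01 in both. The lowest NIF library lay above the highest DMSO library for 10 of 10 genes in each SW620 population, as it did for 22.5% of genes in ALDHbr and 31.5% in ALDHneg cells.

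In SUM159 ALDHbr cells 1 of 10 was called higher and 0 lower, against 0.936% and 2.23% of 14953 genes, and in SUM159 ALDHneg cells 1 of 10 higher and 0 lower, against 1.1% and 2.2%. Without SUM159 ALDHbr DMSO replicate 3 the ALDHbr count was 0. Of the members that were not called, ATF4, DDIT4 and TRIB3 had 95% intervals that did not include 0 in ALDHbr cells. In ALDHneg cells these were ATF4, DDIT4, TRIB3 and SESN2. Such an interval corresponds to an unadjusted p under 0.05, and the share of all genes with one was not counted. Median log2 fold changes were 0.24 and 0.15, and -0.003 and 0.003 for all genes tested. SUM159 libraries of one replicate number deviated together, and once that number entered the model as a block, 3 members were called higher and 1 lower in ALDHbr cells (5.77% and 7.56% of genes), and 4 higher and 1 lower in ALDHneg cells (6.1% and 7.08%). The lowest NIF library lay above the highest DMSO library for 4 of 10 genes in SUM159 ALDHbr (ATF4, DDIT3, TRIB3 and CHAC1) and 2 of 10 in ALDHneg cells (ATF4 and CHAC1), against 11% and 9.65% of genes.

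**Figure D1:**
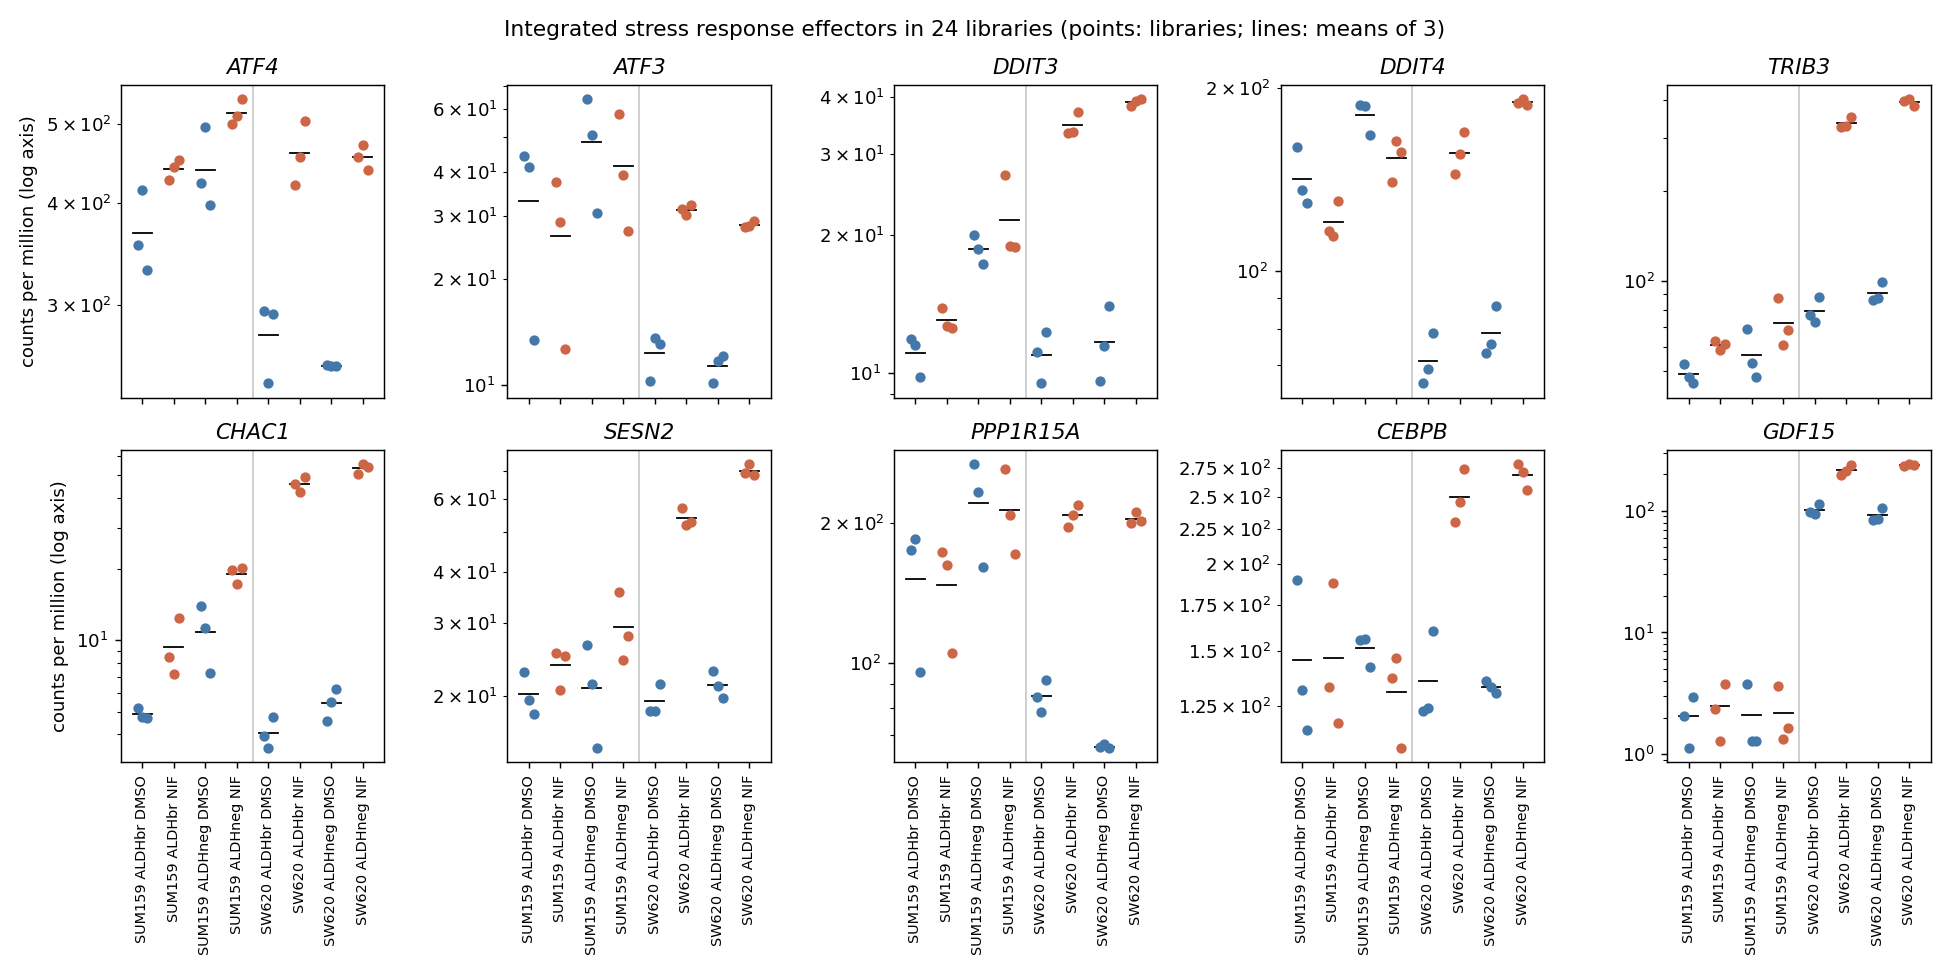
CPM of the 10 genes in the 24 libraries on log axes that differ between panels, with 3 points for each of the 8 conditions (blue for DMSO, orange for NIF) and a line at their mean. All SW620 NIF points lie above the SW620 DMSO points in every panel. In SUM159 the points of ATF3, PPP1R15A, SESN2, CEBPB and GDF15 overlap in both populations. Those of DDIT3 and TRIB3 overlap in SUM159 ALDHneg cells, and those of DDIT4 in SUM159 ALDHbr cells.

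**Figure D2:**
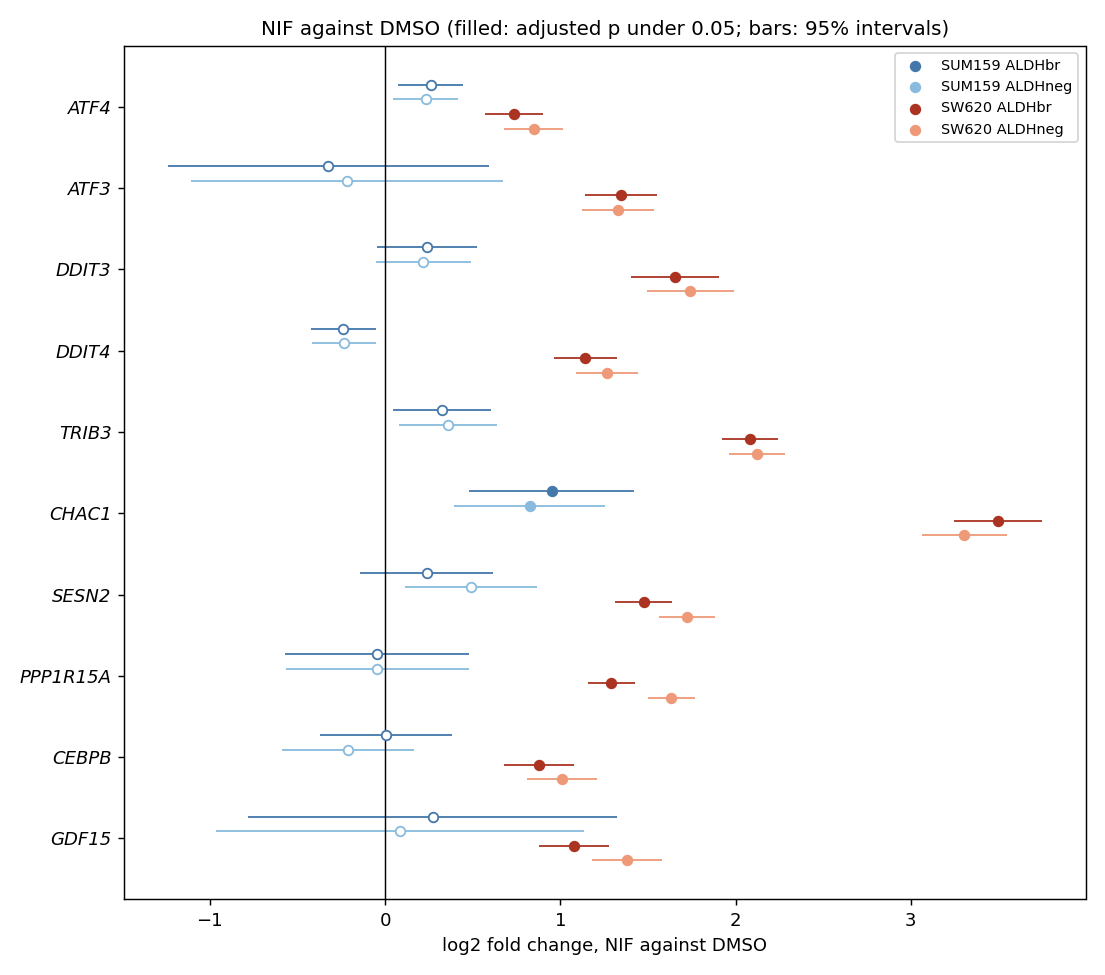
Log2 fold change of NIF against DMSO for each gene in the 4 line and population pairs, from the fits without the replicate block. Bars are 95% intervals, and filled points have an adjusted p under 0.05. The SW620 points are all filled and lie between 0.74 and 3.50, and the SUM159 points lie between -0.32 and 0.95, with CHAC1 alone filled.

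ATF4 is the transcription factor at the head of the response and is governed largely at translation. In SW620 ALDHbr libraries its RNA stood at 295, 241 and 293 CPM under DMSO and 421, 455 and 504 CPM under NIF. ALDHneg libraries of that line gave 254, 252 and 253 CPM under DMSO and 455, 471 and 439 CPM under NIF. The groups did not overlap in either population, and the DMSO libraries of ALDHneg cells were nearly level with each other. The rise was 1.67-fold in ALDHbr cells (log2 fold change 0.74, SE 0.0782, adjusted p = 4.16e-06) and 1.80-fold in ALDHneg cells (log2 fold change 0.85, SE 0.0783, adjusted p = 8.81e-07). SUM159 ALDHbr cells had 355, 415 and 332 CPM under DMSO and 426, 443 and 451 CPM under NIF. The ALDHneg cells had 423, 496 and 398 CPM under DMSO and 500.2, 511 and 536 CPM under NIF. Every NIF library lay above every DMSO library here too, but the steps were small, and replicate 2 of the DMSO groups came close to the NIF level. The quasi-likelihood test gave a log2 fold change of 0.26 (95% interval 0.08 to 0.45, adjusted p = 0.125) in ALDHbr cells and of 0.23 (95% interval 0.05 to 0.42, adjusted p = 0.178) in ALDHneg cells. With the replicate block ATF4 was called higher in both (0.27, adjusted p = 0.00528 and 0.24, adjusted p = 0.0113), while without ALDHbr DMSO replicate 3 the unblocked value was 0.19 (adjusted p = 0.364). Unblocked, it was called in ALDHbr cells with DESeq2 (adjusted p = 0.0481), without a filter (adjusted p = 0.0460) and without DMSO replicate 2 (0.36, adjusted p = 0.0404). In ALDHneg cells it was called without DMSO replicate 2 (0.33, adjusted p = 0.0402). No other setting tried gave a call in SUM159. The SW620 response was larger than that of SUM159 by 0.47 log2 units in ALDHbr cells (SE 0.124, adjusted p = 0.00706) and by 0.62 in ALDHneg cells (SE 0.124, adjusted p = 5.82e-04).

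ATF3, a basic leucine zipper factor induced by ATF4 and by many other stresses, gave 10.3, 13.6 and 13.1 CPM under DMSO and 31.4, 30.2 and 32.3 CPM under NIF in SW620 ALDHbr cells. In ALDHneg cells it gave 10.1, 11.7 and 12.1 CPM under DMSO and 27.9, 28.2 and 29.1 CPM under NIF. The SW620 groups were tight and well apart. The rise was 2.54-fold in ALDHbr cells (log2 fold change 1.35, SE 0.0950, adjusted p = 7.38e-08) and 2.51-fold in ALDHneg cells (log2 fold change 1.33, SE 0.0951, adjusted p = 6.96e-08). SUM159 ALDHbr libraries held 44.3, 41.3 and 13.5 CPM under DMSO and 37.4, 28.9 and 12.6 CPM under NIF, and ALDHneg libraries held 64.1, 50.9 and 30.6 CPM under DMSO and 58.4, 39.1 and 27.2 CPM under NIF. Replicate 3 was the lowest library in each of the 4 SUM159 groups, and within each replicate number NIF lay below DMSO in 3 of 3 pairs of both populations. The quasi-likelihood test found a log2 fold change of -0.32 (95% interval -1.24 to 0.59, adjusted p = 0.772) in ALDHbr cells and of -0.22 (95% interval -1.11 to 0.67, adjusted p = 0.857) in ALDHneg cells. With the block these were -0.31 (adjusted p = 0.105) and -0.23 (adjusted p = 0.223), again not called. SW620 exceeded SUM159 in response by 1.67 log2 units in ALDHbr cells (SE 0.498, adjusted p = 0.0166) and by 1.55 in ALDHneg cells (SE 0.492, adjusted p = 0.0237). The unblocked ALDHbr call was lost without SUM159 ALDHbr DMSO replicate 1 (adjusted p = 0.0577). The unblocked ALDHneg call was lost without any of 3 of 12 libraries (adjusted p = 0.0587 to 0.0794). These were SUM159 ALDHneg DMSO replicate 1, SUM159 ALDHneg NIF replicate 3 and SW620 ALDHneg DMSO replicate 1. With a replicate block in both lines the differences were 1.66 in ALDHbr (adjusted p = 8.49e-07) and 1.56 in ALDHneg cells (adjusted p = 1.32e-06).

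DDIT3 encodes CHOP, the factor that turns lasting stress toward cell death. It read 11.1, 9.50 and 12.3 CPM under DMSO and 33.4, 33.5 and 37.1 CPM under NIF in SW620 ALDHbr and 9.59, 11.5 and 14.0 CPM under DMSO and 38.2, 39.2 and 39.5 CPM under NIF in SW620 ALDHneg cells. Treated libraries lay far above the controls in both. The rise was 3.15-fold in ALDHbr cells (log2 fold change 1.66, SE 0.117, adjusted p = 7.38e-08) and 3.34-fold in ALDHneg cells (log2 fold change 1.74, SE 0.116, adjusted p = 3.43e-08). For SUM159 the values were 11.9, 11.5 and 9.80 CPM under DMSO and 13.9, 12.7 and 12.5 CPM under NIF in ALDHbr cells. They were 19.9, 18.6 and 17.3 CPM under DMSO and 27.0, 18.9 and 18.8 CPM under NIF in ALDHneg cells. The ALDHbr groups were just apart, and in ALDHneg cells 1 NIF library stood high while the other two lay within the DMSO range. Unblocked, this was a log2 fold change of 0.24 (95% interval -0.04 to 0.53, adjusted p = 0.394) in ALDHbr cells and of 0.22 (95% interval -0.05 to 0.49, adjusted p = 0.424) in ALDHneg cells. The response in SW620 was above that in SUM159 by 1.41 log2 units in ALDHbr cells (SE 0.187, adjusted p = 5.03e-06) and by 1.53 in ALDHneg cells (SE 0.180, adjusted p = 8.61e-07).

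CEBPB, a C/EBP factor that pairs with ATF4 and CHOP, had 123, 124 and 161 CPM under DMSO and 229.7, 246 and 274 CPM under NIF in SW620 ALDHbr cells. ALDHneg cells had 136, 133 and 131 CPM under DMSO and 279, 271 and 256 CPM under NIF. No treated library reached down to a control. The rise was 1.84-fold in ALDHbr cells (log2 fold change 0.88, SE 0.0922, adjusted p = 3.71e-06) and 2.02-fold in ALDHneg cells (log2 fold change 1.01, SE 0.0923, adjusted p = 7.84e-07). In SUM159 the ALDHbr values were 190.1, 132 and 116 CPM under DMSO and 133, 188 and 118 CPM under NIF, and the ALDHneg values 156, 156 and 143 CPM under DMSO and 137, 147 and 109 CPM under NIF. The highest DMSO and NIF libraries of ALDHbr cells were nearly equal, and the groups overlapped. SUM159 showed a log2 fold change of 0.01 (95% interval -0.37 to 0.38, adjusted p = 0.992) in ALDHbr cells and of -0.21 (95% interval -0.59 to 0.17, adjusted p = 0.614) in ALDHneg cells. Between lines the response differed by 0.87 log2 units in ALDHbr cells (SE 0.218, adjusted p = 0.00491) and by 1.23 in ALDHneg cells (SE 0.218, adjusted p = 1.75e-04).

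TRIB3, a pseudokinase that restrains ATF4 and CHOP and blocks AKT, stood at 76.5, 72.7 and 88.1 CPM under DMSO and 327, 328 and 352 CPM under NIF in SW620 ALDHbr cells. It stood at 86.4, 87.5 and 98.5 CPM under DMSO and 397, 404 and 383 CPM under NIF in SW620 ALDHneg cells. The NIF libraries lay far above the controls with little spread. The rise was 4.24-fold in ALDHbr cells (log2 fold change 2.08, SE 0.0744, adjusted p = 8.32e-11) and 4.35-fold in ALDHneg cells (log2 fold change 2.12, SE 0.0742, adjusted p = 5.67e-11). SUM159 gave 52.7, 47.6 and 45.3 CPM under DMSO and 62.6, 58.5 and 61.2 CPM under NIF in ALDHbr cells, and 68.7, 53.1 and 47.7 CPM under DMSO and 87.6, 61.1 and 68.5 CPM under NIF in ALDHneg cells. NIF was higher within all 3 replicate numbers of both populations, without overlap in ALDHbr cells. The unblocked test gave a log2 fold change of 0.32 (95% interval 0.04 to 0.61, adjusted p = 0.218) in ALDHbr cells and of 0.36 (95% interval 0.08 to 0.64, adjusted p = 0.163) in ALDHneg cells. With the replicate block it was called higher in both (0.33, adjusted p = 0.00519 and 0.36, adjusted p = 0.00208). The unblocked test also called it in ALDHbr cells with only the groups compared (adjusted p = 0.0309). In ALDHneg cells that test called it without a filter (adjusted p = 0.0476). SW620 responded more than SUM159 by 1.76 log2 units in ALDHbr cells (SE 0.160, adjusted p = 2.14e-08) and by 1.77 in ALDHneg cells (SE 0.159, adjusted p = 1.36e-08).

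PPP1R15A encodes GADD34, the phosphatase subunit that dephosphorylates eIF2 and so ends the response. SW620 ALDHbr libraries read 84.6, 78.4 and 91.9 CPM under DMSO and 196, 209 and 219 CPM under NIF. SW620 ALDHneg libraries read 65.7, 66.7 and 65.4 CPM under DMSO and 200.2, 211 and 203 CPM under NIF. The treated levels of both populations were alike, and the DMSO level was lower in ALDHneg cells. The rise was 2.45-fold in ALDHbr cells (log2 fold change 1.29, SE 0.0619, adjusted p = 1.59e-09) and 3.10-fold in ALDHneg cells (log2 fold change 1.63, SE 0.0626, adjusted p = 1.26e-10). In SUM159 it read 175, 185 and 95.5 CPM under DMSO and 173, 163 and 105 CPM under NIF in ALDHbr cells and 269, 233 and 161 CPM under DMSO and 262, 208 and 172 CPM under NIF in ALDHneg cells. Replicate 3 was the lowest of every SUM159 group, and the treatments overlapped fully. These gave a log2 fold change of -0.05 (95% interval -0.57 to 0.48, adjusted p = 0.952) in ALDHbr cells and of -0.04 (95% interval -0.57 to 0.48, adjusted p = 0.957) in ALDHneg cells. The SW620 response exceeded the SUM159 response by 1.34 log2 units in ALDHbr cells (SE 0.281, adjusted p = 0.00108) and by 1.69 in ALDHneg cells (SE 0.282, adjusted p = 8.37e-05).

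CHAC1, which degrades glutathione and whose promoter holds the C/EBP-ATF motif shown above, had 3.92, 3.50 and 4.74 CPM under DMSO and 45.9, 42.6 and 49.2 CPM under NIF in SW620 ALDHbr cells. In ALDHneg cells of SW620 it had 4.56, 5.48 and 6.23 CPM under DMSO and 50.4, 55.8 and 54.3 CPM under NIF. The controls were low and the treated libraries high, with a wide gap. The rise was 11.3-fold in ALDHbr cells (log2 fold change 3.50, SE 0.116, adjusted p = 4.21e-11) and 9.89-fold in ALDHneg cells (log2 fold change 3.31, SE 0.112, adjusted p = 4.10e-11). SUM159 ALDHbr cells gave 5.19, 4.73 and 4.68 CPM under DMSO and 8.49, 7.22 and 12.4 CPM under NIF, and SUM159 ALDHneg cells 13.9, 11.3 and 7.30 CPM under DMSO and 19.9, 17.3 and 20.2 CPM under NIF. All NIF libraries lay above all DMSO libraries of their population, and the DMSO level was higher in ALDHneg cells. Here the test called a log2 fold change of 0.95 (95% interval 0.48 to 1.42, adjusted p = 0.0284) in ALDHbr cells and of 0.82 (95% interval 0.39 to 1.26, adjusted p = 0.0378) in ALDHneg cells. With the block the adjusted p values were 0.00172 and 0.00152. The unblocked ALDHbr call was lost when any library other than NIF replicate 2 was left out (adjusted p = 0.0639 to 0.108, and 0.0853 without DMSO replicate 3), and the ALDHneg call when any library other than DMSO replicate 1 was left out (adjusted p = 0.0581 to 0.125). The response of SW620 was larger by 2.54 log2 units in ALDHbr cells (SE 0.272, adjusted p = 2.36e-07) and by 2.49 in ALDHneg cells (SE 0.249, adjusted p = 7.45e-08).

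DDIT4 encodes REDD1, an inhibitor of mTORC1 that low oxygen and glucocorticoids also induce. It gave 65.2, 68.7 and 78.9 CPM under DMSO and 145, 156 and 169.6 CPM under NIF in SW620 ALDHbr cells. ALDHneg cells gave 73.2, 75.7 and 87.5 CPM under DMSO and 189, 192 and 188 CPM under NIF. Treated libraries were above all controls. The rise was 2.21-fold in ALDHbr cells (log2 fold change 1.14, SE 0.0835, adjusted p = 1.06e-07) and 2.41-fold in ALDHneg cells (log2 fold change 1.27, SE 0.0833, adjusted p = 3.12e-08). In SUM159 the values were 160.3, 136 and 129 CPM under DMSO and 116, 114 and 130.2 CPM under NIF in ALDHbr cells. In ALDHneg cells of SUM159 there were 188, 187 and 168 CPM under DMSO and 140.1, 164 and 157 CPM under NIF. All NIF libraries of ALDHneg cells lay below the DMSO libraries, while in ALDHbr cells NIF replicate 3 and DMSO replicate 3 were level. This was a log2 fold change of -0.24 (95% interval -0.42 to -0.05, adjusted p = 0.16) in ALDHbr cells and of -0.24 (95% interval -0.42 to -0.05, adjusted p = 0.165) in ALDHneg cells. The drop was called with the replicate block (-0.24, adjusted p = 0.0373 and -0.23, adjusted p = 0.0359) and in no other setting tried. The lines differed in response by 1.38 log2 units in ALDHbr cells (SE 0.128, adjusted p = 2.67e-08) and by 1.51 in ALDHneg cells (SE 0.127, adjusted p = 5.03e-09).

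SESN2, a sestrin that restrains mTORC1 when leucine is short, read 18.4, 18.4 and 21.4 CPM under DMSO and 57.2, 51.8 and 52.8 CPM under NIF in SW620 ALDHbr cells. It read 22.9, 21.2 and 19.7 CPM under DMSO and 69.2, 73.0 and 68.8 CPM under NIF in SW620 ALDHneg cells. NIF libraries were high in both, and higher in ALDHneg than in ALDHbr cells. The rise was 2.78-fold in ALDHbr cells (log2 fold change 1.48, SE 0.0757, adjusted p = 2.85e-09) and 3.30-fold in ALDHneg cells (log2 fold change 1.72, SE 0.0751, adjusted p = 4.42e-10). SUM159 values were 22.9, 19.5 and 18.1 CPM under DMSO and 25.5, 20.7 and 25.0 CPM under NIF in ALDHbr cells. For ALDHneg cells they were 26.6, 21.3 and 14.9 CPM under DMSO and 35.7, 24.4 and 27.9 CPM under NIF. NIF was above DMSO within each replicate number, although the groups overlapped. The SUM159 data gave a log2 fold change of 0.24 (95% interval -0.14 to 0.62, adjusted p = 0.558) in ALDHbr cells and of 0.49 (95% interval 0.11 to 0.87, adjusted p = 0.159) in ALDHneg cells. With the replicate block it was called in ALDHneg cells (0.50, adjusted p = 0.00328) and not in ALDHbr cells (0.24, adjusted p = 0.155). The unblocked quasi-likelihood test without a filter also called SESN2 in ALDHneg cells (adjusted p = 0.0377). Its response was larger in SW620 by 1.24 log2 units in ALDHbr cells (SE 0.208, adjusted p = 1.06e-04) and by 1.24 in ALDHneg cells (SE 0.205, adjusted p = 7.89e-05).

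GDF15, a secreted factor of the TGF-beta superfamily that signals stress to the brainstem, had 98.2, 93.8 and 113 CPM under DMSO and 198, 211 and 236 CPM under NIF in SW620 ALDHbr cells. SW620 ALDHneg cells had 83.9, 85.3 and 105 CPM under DMSO and 234, 242 and 238 CPM under NIF. Both treated groups were clear of their controls. The rise was 2.11-fold in ALDHbr cells (log2 fold change 1.08, SE 0.0928, adjusted p = 5.36e-07) and 2.60-fold in ALDHneg cells (log2 fold change 1.38, SE 0.0934, adjusted p = 4.13e-08). In SUM159 its level was low, with 2.07, 1.12 and 2.93 CPM under DMSO and 2.36, 1.29 and 3.76 CPM under NIF in ALDHbr and 3.75, 1.29 and 1.28 CPM under DMSO and 3.60, 1.33 and 1.65 CPM under NIF in ALDHneg cells. Scaled over all 24 libraries, the DMSO means were 1.92 (SD 0.851) and 1.97 (SD 1.33) CPM in SUM159 ALDHbr and ALDHneg cells, and 108 (SD 10.5) and 97.1 (SD 12.6) CPM in SW620. The SUM159 groups overlapped, with a log2 fold change of 0.27 (95% interval -0.78 to 1.32, adjusted p = 0.843) in ALDHbr cells and of 0.09 (95% interval -0.97 to 1.14, adjusted p = 0.959) in ALDHneg cells. SUM159 ALDHbr DMSO replicate 3, which held the epithelial counts, had 109 counts of GDF15, 1.84% of the mean SW620 level and within the 33 to 160 counts of the other 11 SUM159 libraries, and without it the ALDHbr value was 0.63 (adjusted p = 0.676). The part of those counts in the result was not tested. The SW620 response was above the SUM159 response by 0.81 log2 units in ALDHbr cells (SE 0.451, adjusted p = 0.221) and by 1.25 in ALDHneg cells (SE 0.450, adjusted p = 0.0473). The ALDHneg call was lost without any of 8 of 12 libraries (adjusted p = 0.0656 to 0.501), with SUM159 ALDHneg DMSO replicate 1 giving the largest shift, to 0.55. It was also lost with DESeq2 (1.33, adjusted p = 0.129) and with library-size scaling (1.19, adjusted p = 0.0708). With a replicate block in both lines the difference was 0.82 in ALDHbr (adjusted p = 0.0700) and 1.28 in ALDHneg cells (adjusted p = 0.00541).

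Across the group, the response to NIF was larger in SW620 than in SUM159 for 9 of 10 effectors in ALDHbr cells (12.4% of 16271 genes were called higher in this comparison) and for 10 of 10 in ALDHneg cells (11.9%; 9 of 10 with DESeq2), by the quasi-likelihood test of the difference in a fit of all 24 libraries. The median difference of the 10 genes was 1.36 and 1.52 log2 units, and 0.01 and 0.002 over all genes tested. GDF15 in ALDHbr cells was the exception, with a 95% interval of -0.13 to 1.74. Without SUM159 ALDHbr DMSO replicate 3, 9 of 10 were again called in ALDHbr cells, from 0.55 for ATF4 to 2.57 for CHAC1. The order of the changes was partly shared: CHAC1 led in both lines and ATF4 was last in SW620. DDIT4, ATF3 and PPP1R15A rose in SW620 and had values below 0 in both SUM159 populations, as CEBPB had in ALDHneg cells. Of these only DDIT4 was called lower in SUM159, with the replicate block. The lines differ in tissue, and line and experiment cannot be told apart.

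The ALDHbr and ALDHneg responses were then compared within each line. In SW620 the 10 differences in response, ALDHbr minus ALDHneg, ran from -0.34 for PPP1R15A to 0.19 for CHAC1, and 0 of 10 were called by edgeR, against 0.00717% of genes. At an unadjusted p under 0.05 there were 3 of 10 members, PPP1R15A, SESN2 and GDF15, against 5.53% of genes (771). DESeq2 called 0 members. The PPP1R15A difference was -0.34 log2 units (SE 0.0865, 95% interval -0.53 to -0.16, adjusted p = 0.444), and without SW620 ALDHbr DMSO replicate 2 it was called (-0.39, adjusted p = 0.0460). In SUM159 the differences ran from -0.25 for SESN2 to 0.22 for CEBPB. Of all genes 0% were called and 0 of 10 members. At an unadjusted p under 0.05 there were 238 genes (1.59%) and 0 members, and DESeq2 called 2 genes and 0 members. Without the replicate block the intervals were wide for GDF15 (-1.30 to 1.67) and ATF3 (-1.38 to 1.17), and narrower for ATF4 (-0.23 to 0.29). In that fit only large differences between the populations could be detected for GDF15 and ATF3. With the block the differences were -0.08 (SE 0.169) for ATF3 and 0.17 (SE 0.438) for GDF15. The blocked fit called 0 members and 6 genes.

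Independent of treatment, the populations of SUM159 differed. Under DMSO, 4 of 10 effectors were lower in ALDHbr than in ALDHneg cells and 0 were higher, against 12.3% of genes called lower. The mesenchymal markers moved the same way, with 5 of 10 lower and 0 higher (median -0.30, as for the 10 effectors), and their mean was 7.43 to 7.58 log2 CPM in the ALDHbr and 7.78 to 7.90 in the ALDHneg libraries, with none of the 10 at 0. Their part in the result was not tested. CHAC1 was lower by the widest margin (log2 difference -1.15, SE 0.219, adjusted p = 0.00131), followed by DDIT3 (-0.75, adjusted p = 6.92e-04), DDIT4 (-0.35, adjusted p = 0.0083) and ATF4 (-0.26, adjusted p = 0.0447). The libraries of CHAC1, DDIT3 and DDIT4 did not overlap between populations, while those of ATF4 did. The share of all genes without overlap was not counted for this comparison. Without SUM159 ALDHbr DMSO replicate 3 the CHAC1, DDIT3 and DDIT4 calls were kept (-1.12, -0.67 and -0.28) and that of ATF4 was lost (-0.19, adjusted p = 0.190), as it was without any of 3 other libraries (ALDHbr DMSO replicate 1 and ALDHneg DMSO replicates 1 and 2). With the replicate block 7 members were lower, against 18.2% of genes, the added ones being ATF3 (-0.63, adjusted p = 2.27e-04), PPP1R15A (-0.56, adjusted p = 3.33e-06) and TRIB3 (-0.21, adjusted p = 0.0339).

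Under NIF the same comparison in SUM159 called 3 of 10 lower, against 12% of genes, and 5 of 10 mesenchymal markers were lower too (median -0.21). The effectors called were CHAC1 (-1.03, adjusted p = 0.0019), DDIT3 (-0.73, adjusted p = 7.99e-04) and DDIT4 (-0.35, adjusted p = 0.00833). With the block 8 of 10 were lower, against 18.3% of genes, and CEBPB and GDF15 were the members not called. In SW620, PPP1R15A was higher in ALDHbr cells under DMSO (0.37, SE 0.0619, adjusted p = 0.00192), the 1 member of 10 called higher, against 5.45% of genes. SESN2 was lower in ALDHbr cells under NIF (-0.38, SE 0.0719, adjusted p = 0.00481), the 1 member called lower, against 3.26%. CHAC1 under DMSO was -0.41 (adjusted p = 0.0542) in SW620. The PPP1R15A and SESN2 calls were lost in a fit of all 24 libraries (adjusted p = 0.246 and 0.131), and without ALDHbr DMSO replicate 2 the number of members called under DMSO went from 1 to 2 and that of genes from 1577 to 5487.

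**Figure D3:**
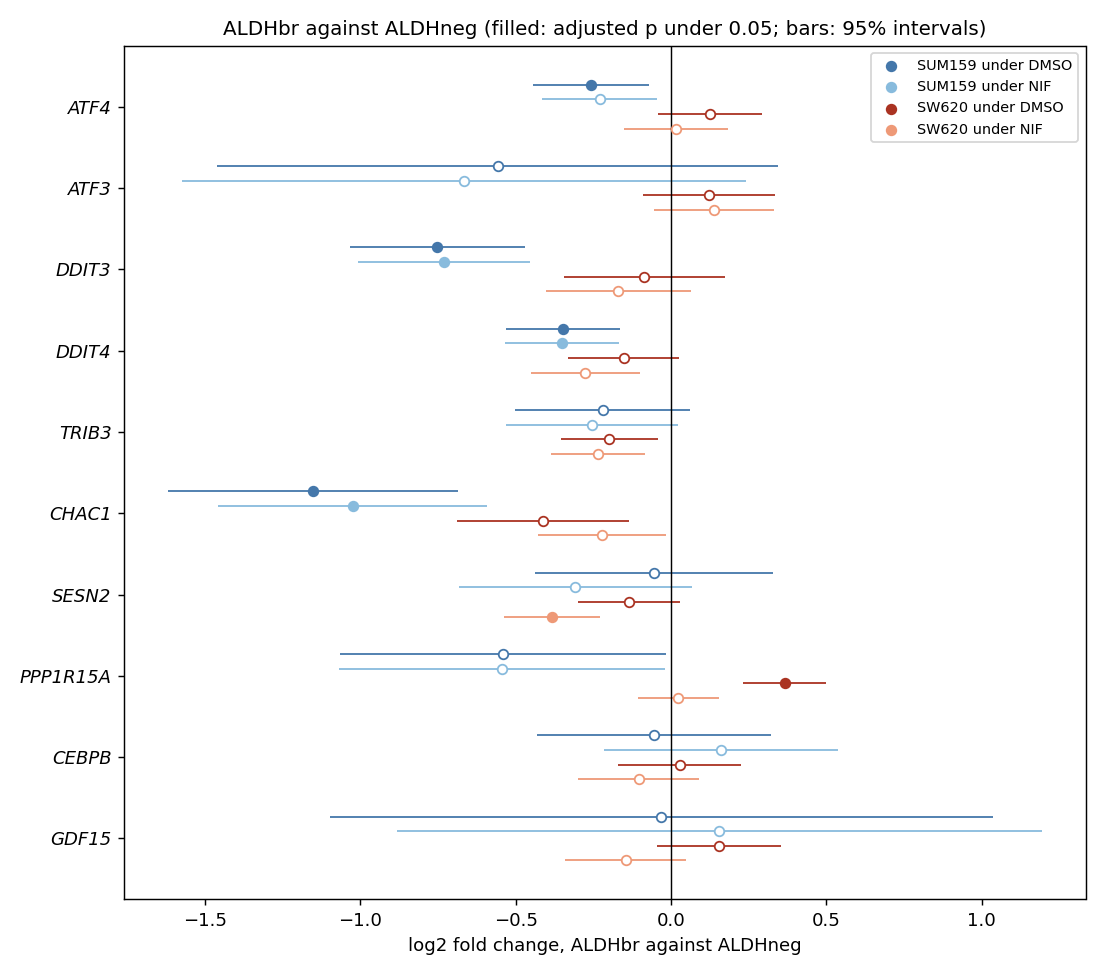
Log2 fold change of ALDHbr against ALDHneg cells for each gene under DMSO and under NIF in both lines, from the fits without the replicate block. Bars are 95% intervals, and filled points have an adjusted p under 0.05. The filled SUM159 points, from -1.15 to -0.26, all lie left of 0, and in SW620 only PPP1R15A under DMSO (0.37) and SESN2 under NIF (-0.38) are filled.

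Other genes of the pathway were read from lists, of which some share genes (INHBE and SESN1 are each in 2). Of 30 further ATF4 target genes, 28 were tested in SW620. Of these 24 rose and 1 fell in ALDHbr cells (median log2 fold change 1.11), against 21.4% and 21.9% of all genes, and 26 rose and 1 fell in ALDHneg cells (median 1.20), against 22.3% and 22.7%. SLC6A9, a glycine transporter, rose most (log2 fold change 3.51 and 3.27), and ALDH18A1, an enzyme of proline synthesis, fell (-0.65 and -0.59, adjusted p = 1.82e-07 and 3.62e-07 by the quasi-likelihood test). In SUM159 ALDHbr cells 0 of 30 rose and 1 fell (median 0.01), against 0.936% and 2.23% of all genes, and that gene was STC2, a secreted glycoprotein (-0.67 and -0.57). In SUM159 ALDHneg cells 1 of 30 rose and 1 fell.

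Among the basic leucine zipper partners and relatives of ATF4, 8 of 13 tested rose and 1 fell in both SW620 populations, led by JDP2, a repressor of AP-1 sites (1.66 and 1.54). Of all genes, 21.4% rose and 21.9% fell in SW620 ALDHbr cells, and 22.3% and 22.7% in ALDHneg cells. ATF5, a paralog of ATF4 that is also governed at translation, went in opposite directions in the lines. It fell in SW620 (-0.48 and -0.53, adjusted p = 4.55e-05 and 1.48e-05) and rose in SUM159 (0.54 and 0.58, adjusted p = 0.000418 and 0.000253), with a difference in response of -1.02 and -1.11 (adjusted p = 4.47e-08 and 1.01e-08, quasi-likelihood test). It was the 1 of 14 genes of that list called in SUM159, where 0.936% of all genes in ALDHbr and 1.1% in ALDHneg cells were called higher. Of 9 CHOP target and death genes 6 rose and 0 fell in both SW620 populations (medians 0.46 and 0.51), from BBC3, the proapoptotic PUMA (0.33 and 0.50), to PMAIP1, the proapoptotic NOXA (1.11 and 1.30). In SUM159 TNFRSF10A, a TRAIL receptor, was called in both populations (0.33 and 0.38).

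Genes on the sensor side of the pathway came out on both sides of 0 in SW620, and the counts of these lists are set against the 21.4% of all genes that were called higher and the 21.9% called lower in ALDHbr cells. Of 10 ISR kinases and sensors 4 rose and 1 fell in SW620 ALDHbr cells (median 0.17), between EIF2AK1, the heme-regulated kinase HRI (-0.18 and -0.23), and IMPACT, an inhibitor of the kinase GCN2 (0.37 and 0.28). Of 13 subunits of eIF2, eIF2B and their phosphatase, 3 rose and 4 fell (median -0.04). The called genes ran from PPP1CC, a catalytic subunit (-0.41 and -0.55), to PPP1R15B, the constitutive paralog of PPP1R15A (0.33 and 0.36). Of 17 genes of the ATF6 and XBP1 arms of the unfolded protein response 8 rose and 4 fell (median 0.05), from the chaperone CALR (-0.50 and -0.64) to ERN1, the sensor IRE1 (1.27 and 1.30). Of 13 mitochondrial stress genes 3 rose and 5 fell, between the chaperonin HSPE1 (-0.65 and -0.63) and the protease LONP1 (0.50 and 0.54). None of these 4 lists had a called gene in SUM159 ALDHbr or ALDHneg cells by edgeR.

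Lists that could share regulators with single members had called genes on both sides of 0, except for the immediate early genes. The counts are set against the same 21.4% of all genes higher and 21.9% lower in SW620 ALDHbr cells. Of 13 immediate early genes, which overlap ATF3 in their regulation, 11 rose and 0 fell in SW620 ALDHbr cells (median 0.60), from MYC (0.18) to KLF4 (1.39). Of 20 p53 target genes, a list relevant to SESN2 and GDF15, 6 rose and 4 fell (median 0.02), shares near those of all genes, from TP53INP1 (-1.17, and -0.13 with adjusted p = 0.736 in ALDHneg cells) to the cell cycle inhibitor CDKN1A (1.91 and 2.15). Among 11 further mTORC1 inhibitors and sestrin relatives 3 rose and 2 fell, with SESN1 lowest (-0.96 and -0.79), opposite to SESN2, and CASTOR2 highest (0.35 and 0.38). Of 11 tested hypoxia and glucocorticoid target genes, relevant to DDIT4, 2 rose and 2 fell, from CA9, a carbonic anhydrase (-1.17 and -1.16), to the glucose transporter SLC2A1 (0.95 and 0.76). Of 6 tested relatives of GDF15 1 rose, INHBE (2.37 and 3.26), which is also among the ATF4 targets, and 3 fell, with TGFB2 lowest (-0.91 and -1.06). CA9 rose in SUM159 (1.81 and 1.59, adjusted p = 0.00118 and 0.000642), and its difference in response between lines was -2.98 and -2.75 (adjusted p = 4.77e-08 and 5.41e-10 by the quasi-likelihood test). MDM2, a p53 target, fell in SUM159 ALDHbr cells (-0.33, adjusted p = 0.0439).

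**Figure D4:**
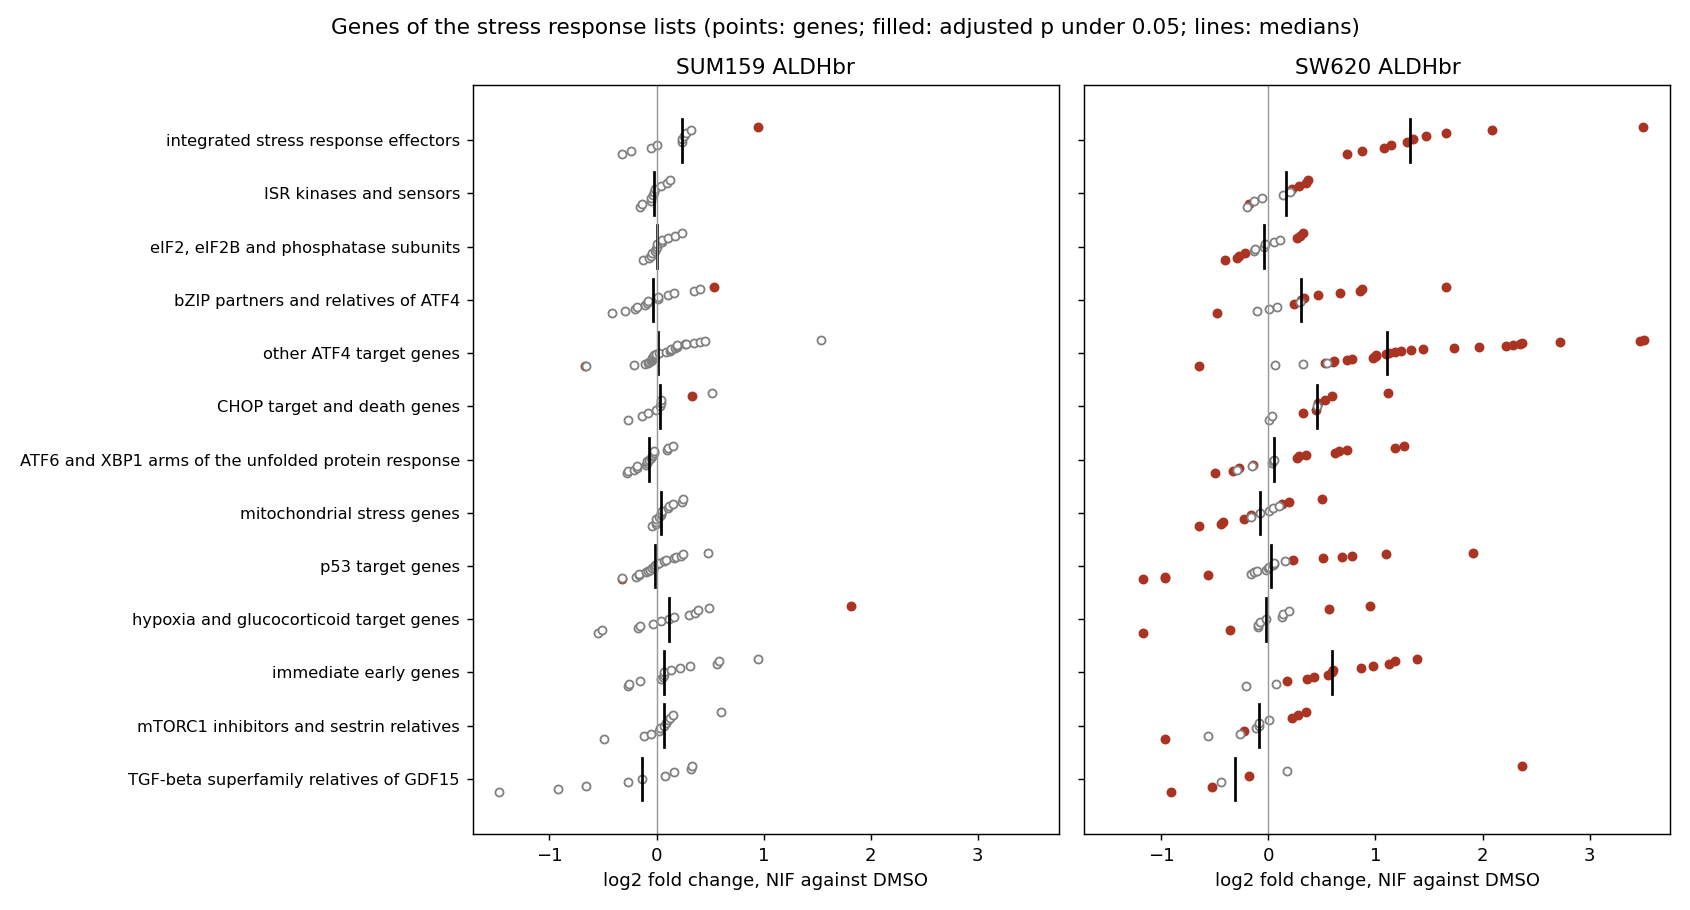
Log2 fold change of NIF against DMSO for each tested gene of the effector group and of 12 other lists in SUM159 ALDHbr (left) and SW620 ALDHbr cells (right). The fits were those without the replicate block. Filled points have an adjusted p under 0.05, and lines mark the list medians. The effectors (median 1.32) and all other ATF4 targets (median 1.11) except ALDH18A1 lie right of 0 in SW620, and their medians in SUM159 are 0.24 and 0.01.

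Over the 8 conditions, with mean log2 CPM centred within each line, the genes outside the group nearest to ATF4 among 12780 genes tested in both lines were EPS8L1, MAFK and SLC25A25 (root mean square difference 0.0333, 0.0447 and 0.0474 log2 units). Those nearest to DDIT3 were RHBDL1, PHGDH and PRDM1 (0.0734, 0.0761 and 0.103). PHGDH, the first enzyme of serine synthesis, is itself in the list of ATF4 targets.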

How the data were processed

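The authors deposited whole-number read counts for 28307 genes in 24 libraries, without normalization. Per the labels, total RNA was prepared with a stranded kit, and the submitters' processing notes name FastQC, STAR and GRCh38. The counting tool, annotation and strand setting are not given in the sources used here, so reads of overlapping genes and near-identical copies may be split uncertainly. Libraries were grouped by line, population and treatment from the labels. The study's methods describe 3 independent experiments. The final NIF concentration is not used here.

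Each line (12 libraries, 4 groups) was fitted in R 4.3.3 with edgeR 4.0.16 after filterByExpr and TMM scaling, with quasi-likelihood F tests, p-values adjusted by Benjamini-Hochberg over all genes tested, and a threshold of 0.05. Differences in response between lines came from a fit of all 24 libraries in 8 groups. Standard errors were taken as the log2 fold change divided by the square root of F, with 95% t intervals. Except as follows, CPM use TMM-adjusted library sizes within each line, and log2 CPM a prior count of 2. Levels of the sort and tissue markers and the search for nearest genes used TMM over all 24 libraries without a filter. The GDF15 means scaled over all 24 libraries used TMM after the filter. Percentages of the mean SW620 level used library totals without TMM. Same-numbered SUM159 libraries deviated together (correlation 0.182 to 0.451, over 0.1 in 12 of 12 pairs). In SW620 1 of 12 was over 0.1. The main fits, also those of the differences in response, left the SUM159 pairing out. Only the fits with the replicate block took it in. Replicates of a group differed by more than sampling noise (chi-square per gene 1.97 to 46.1 over 24 pairs).

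Tried as alternatives were a replicate block, each library left out, a fit of only the groups compared or of all 24 libraries, DESeq2 1.42.0, scaling by RLE or by library size alone, filters of none or of 10 counts in each library, and an added demand for an absolute log2 fold change of at least 1. The fits were tested on simulated counts. Members and lists were chosen with earlier results of these data known. Named were the 10 members, of each other list the genes with the highest and lowest log2 fold change among those called in ALDHbr cells of either line, the 3 genes nearest to ATF4 and to DDIT3, ALDH1A1 and ALDH1A3 as sort markers, and the marker genes EPCAM, KRT20 and CDH1, which were named after their values were seen.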

Additional observations from a re-analysis of the deposited data

Results flagged for a closer look

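The responses to NIF of SW620 and SUM159 differed by the quasi-likelihood test of the difference itself (edgeR, all 24 libraries) for 19 values, all of them larger in SW620. In ALDHbr cells the difference, SW620 minus SUM159, was 2.54 log2 units for CHAC1, 1.76 for TRIB3, 1.67 for ATF3, 1.41 for DDIT3, 1.38 for DDIT4, 1.34 for PPP1R15A, 1.24 for SESN2, 0.87 for CEBPB and 0.47 for ATF4. In ALDHneg cells it was 2.49 for CHAC1, 1.77 for TRIB3, 1.69 for PPP1R15A, 1.55 for ATF3, 1.53 for DDIT3, 1.51 for DDIT4, 1.25 for GDF15, 1.24 for SESN2, 1.23 for CEBPB and 0.62 for ATF4. Line and experiment cannot be told apart.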

How the results depend on the processing

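The rise of the 10 effectors in SW620 kept its direction under all 15 alternatives, and its call in 148 of 150 values in ALDHbr and 149 of 150 in ALDHneg cells. The calls lost were ATF4 and CEBPB in ALDHbr (8 members left) and ATF4 in ALDHneg cells (9 left) at an absolute log2 fold change of at least 1. The line difference of the members called (9 in ALDHbr, 10 in ALDHneg) kept its direction under all 20 alternatives, and its call in 177 of 180 and 186 of 200 values, with 7 and 9 members left at that fold change. In SUM159 the sign of uncalled members turned. CEBPB in ALDHbr cells was -0.00635 with library-size scaling. With 1 library left out, log2 fold changes in ALDHbr cells ran from -0.21 to 0.24 for CEBPB, -0.70 to 0.0142 for ATF3, -0.30 to 0.15 for PPP1R15A and -0.16 to 0.63 for GDF15, and in ALDHneg cells from -0.55 to 0.0386 for ATF3, -0.23 to 0.12 for PPP1R15A and -0.50 to 0.80 for GDF15. The cause was not tested.

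The number of members called under NIF in SUM159 ALDHbr cells (1) became 2 with DESeq2, without a filter and with only the groups compared, 0 at an absolute log2 fold change of at least 1, and 0 to 1 with a library left out. In SUM159 ALDHneg cells (1) it became 3 without a filter, 0 with library-size scaling, 0 at that fold change, and 0 to 1 with a library left out. Between SUM159 populations it became 1 at that fold change under DMSO (from 4) and under NIF (from 3), and 5 under NIF without a filter and with only the groups compared. Between SW620 populations (1 under each treatment), it became 2 under DMSO with DESeq2, library-size scaling or no filter, 3 under NIF with DESeq2, no filter or only the groups compared, 0 under both at that fold change and in the fit of all 24 libraries, and 1 to 3 under DMSO and 1 to 2 under NIF with a library left out. The SW620 difference in response (0) ran from 0 to 1.

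With the replicate block, the SUM159 members called became 4 in ALDHbr and 5 in ALDHneg cells under NIF, and 7 under DMSO and 8 under NIF between populations, and genes called went from 473 to 1994, 493 to 1970, 3432 to 5388 and 3281 to 5270. SW620 numbers did not pair (correlation -0.278 to 0.214, 3 of 12 libraries nearest to their own number), and the block gave 2 members under DMSO and 2 under NIF between populations.

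Genes called in SUM159 under NIF became 875 and 884 with DESeq2, 725 and 743 in the fit of all 24 libraries, 292 in ALDHneg cells with only the groups compared, and 192 to 584 with a library left out. At an absolute log2 fold change of at least 1 they were 68 and 64 in SUM159 and 797 and 941 in SW620 (from 6038 and 6286), 743 and 763 for the line difference (from 3762 and 3641), 852 and 815 between SUM159 populations, and 143 and 121 between SW620 populations (from 1577 and 931). Between SW620 populations, the DMSO count ran from 712 to 5487 (without ALDHbr DMSO replicate 2) and was 729 with only the groups compared, and the NIF count ran from 494 to 996. The difference in response gave 29 genes with DESeq2 in SW620, and 1 to 27 with a library left out. With 3 libraries a group, the spread between replicates limits which differences could be called.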

Other observations

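In SUM159 ALDHneg cells 5 of 13 hypoxia and glucocorticoid target genes rose under NIF and 0 fell (edgeR quasi-likelihood test), against 1.1% and 2.2% of all genes. In SUM159 ALDHbr cells 1 of 13 rose, CA9, against 0.936%, and the difference between the populations in these counts was not tested. In ALDHneg cells DDIT4, which low oxygen also induces, was not called (log2 fold change -0.24). The ALDHneg genes that rose were CA9 (1.59), NDRG1 (0.55), BNIP3 (0.54), PDK1 (0.37) and P4HA1 (0.35), of which the last 4 were named after their values were seen. In SW620 ALDHneg cells CA9 and P4HA1 fell (-1.16 and -0.19), NDRG1 and PDK1 had values of -0.04 and -0.21 that were not called, and BNIP3 did not pass the filter on low counts.

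ALDH1A3, the other sort marker, averaged 145 CPM under DMSO and 52.9 CPM under NIF in SW620 ALDHbr cells, and 188 and 51.1 CPM in ALDHneg cells. In SUM159 it was below 1 CPM in every library.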
